A study of Saccharomyces cerevisiae with 4 samples.

Results

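Ty3 is a retrotransposon of budding yeast, and 3 of the 6207 yeast rows of the array table carry it: YIL082W, YIL082W-A and YIL080W. The rows were chosen by their identifiers, with their ratios already known, so their values are given as a description and without a test. The cells were Saccharomyces cerevisiae of a hog1 mutant. Hog1 is the kinase at the end of the yeast MAPK (mitogen-activated protein kinase) cascade that answers high osmolarity. The treated part of each culture received Zymolyase 100T at 5 units/ml in YEPD medium at 24 °C and was collected at 3 h, and the untreated part of the same culture grew on without the enzyme. Zymolyase is an enzyme preparation that digests the beta-glucan of the yeast cell wall. All cells of both groups carried the hog1 mutation, no wild-type array was used, and strain background and mating type are not given in the sources used. RNA of 2 cultures was hybridised to 4 two-colour arrays, each setting treated against untreated RNA, with treated RNA in Cy3 for arrays 1 and 3 and in Cy5 for arrays 2 and 4.

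Ty3 moves through an RNA copy that is packed into virus-like particles, reverse transcribed and inserted next to the start sites of genes read by RNA polymerase III, most of them tRNA genes. Its Gag protein builds the particle, and its Pol proteins cut the polyprotein, copy the RNA and insert the cDNA. In haploid cells Ty3 is known to be transcribed strongly in response to mating pheromone, through pheromone response elements in its long terminal repeat that are bound by the transcription factor Ste12. Ty1, the most abundant retrotransposon family of yeast, is also known to be under Ste12, together with Tec1, a factor of filamentous growth. In yeast gene nomenclature YIL082W is the Gag frame and YIL082W-A the Gag-Pol frame of a Ty3 copy on chromosome IX. The R64 gene table of RefSeq holds YIL082W-A alone, and YIL082W and YIL080W are names it does not carry. A further Ty3 copy, YGR109W-A and YGR109W-B on chromosome VII, has no row among the 6207. Copies of one family share nearly all their sequence, so a row cannot tell which copy its signal came from.

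Ratios are log2 ratios of Zymolyase over untreated, with the deposited sign reversed on arrays 2 and 4. This direction is likely but unstated. Were untreated RNA the numerator, each sign would flip and each size would stay as it is. The 4 arrays, in order, had 2794, 4162, 5322 and 5127 yeast rows with a value. All 3 Ty3 rows had a value on every array, which held for 2715 rows, or 43.7% of the table. HOG1 had a value on 0 of the 4 arrays and could not be used to check the mutation. Which arrays came from one culture is not labelled, so the SD over 4 arrays given below mixes cultures, dyes and hybridisations.

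YIL082W, the Gag row, was far above 0 on every array. Its log2 ratio was 4.68, 2.38, 3.79 and 4.23 on arrays 1 to 4. Array 2 was the low one, and arrays 1, 3 and 4 lay within 1 unit of each other on the log2 scale. In linear terms the treated RNA gave 25.5, 5.19, 13.8 and 18.8 times the untreated signal. The mean log2 ratio was 3.77 ± 1.00 (SD, n = 4 arrays), a 13.6-fold higher signal in treated cells. It was the 7th highest mean of the 2715 rows with 4 values, and on single arrays the row stood 4th, 19th, 18th and 9th from the top.

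YIL080W was above 0 on every array too, and its size depended on the array. Its log2 ratio was 3.90, 2.75, 2.02 and 0.15 on arrays 1 to 4, which is 14.9-fold, 6.74-fold, 4.06-fold and 1.11-fold. Arrays 1 and 2 were high, array 3 was intermediate and array 4 was close to 0. The mean was 2.21 ± 1.58 (SD, n = 4 arrays), or 4.61-fold. This was the 17th highest mean of the 2715 rows. On array 4 the row stood in place 1948 of 5127, against places 10, 14 and 66 on arrays 1, 2 and 3. Without array 4 the mean was 2.89.

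YIL082W-A, the Gag-Pol row, had the lowest ratios of the 3. Its log2 ratio was 3.74, 2.32, 1.34 and −0.27 on arrays 1 to 4, so the treated signal was 13.4, 5.01, 2.53 and 0.829 times the untreated one. It was above 0 on 3 of 4 arrays and slightly below 0 on array 4. The mean was 1.78 ± 1.69 (SD, n = 4 arrays), or 3.44-fold, in place 25 of the 2715 rows. Array 1 and array 4 pulled it in opposite directions: without array 1 the mean was 1.13, and without array 4 it was 2.47. On array 4, 73.5% of all rows with a value stood above it, against 0.358%, 0.481% and 2.8% on arrays 1, 2 and 3.

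**Figure D1:**
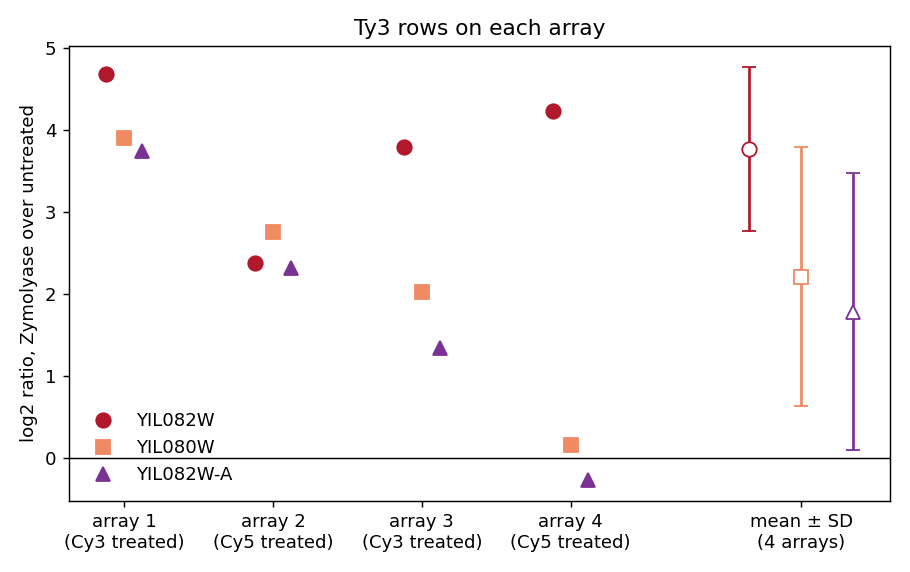
Log2 ratio of Zymolyase over untreated (vertical axis) of the 3 Ty3 rows on each of 4 arrays, with the mean and SD over the 4 arrays as open symbols at the right. YIL082W stays between 2.38 and 4.68, while YIL080W and YIL082W-A reach 3.90 and 3.74 on array 1 and lie at 0.15 and −0.27 on array 4.

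YIL080W and YIL082W-A followed each other across the arrays, and YIL082W followed neither. The difference YIL080W minus YIL082W-A was 0.16, 0.43, 0.68 and 0.42 on arrays 1 to 4, a root mean square difference of 0.46. Each was the nearest to the other of all 2714 remaining rows by that measure. The R64 table does not say which Ty3 frame YIL080W is, so these rows may read the same stretch of Ty3. YIL082W minus YIL082W-A was 0.93, 0.05, 2.45 and 4.50 on the same arrays. The Gag and Gag-Pol rows thus gave nearly the same ratio on array 2 and ratios 22.6 times apart on array 4. By its name the Gag-Pol frame includes Gag, so these rows need not read separate RNAs. Whether the gap lies in the RNA or in the measurement was not tested. By root mean square difference YIL080W was in place 24 and YIL082W-A in place 35 in their distance from YIL082W.

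The split between YIL082W and the other Ty3 rows was widest on array 4 and next widest on array 3, where YIL082W minus YIL080W was 1.77. Each row was also set against its own values on the remaining arrays. On array 4, YIL080W differed from the mean of its values on arrays 1 to 3 by −2.75 and YIL082W-A by −2.74, the lowest and next lowest of the 2715 rows. YIL082W stood 0.61 above its own mean of arrays 1 to 3, and the median row had a difference of −0.03. On array 1, YIL082W-A and YIL080W exceeded the mean of their other arrays by 2.61 and 2.26, in places 1 and 2 of 2715 from the top, and YIL082W by 1.21, in place 11. YIL082W differed most on array 2, at −1.85 against its other arrays, in place 17 from the lowest.

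Of the 10 rows with the largest shortfall on array 4 against arrays 1 to 3, 6 were Ty rows. By name or frame length, 25 of the 2715 rows were matched as Ty rows. Ty rows that this match does not find were not counted, so the 25 are not all Ty rows of the 2715. Beside the Ty3 pair, the Ty rows among the 10 were the Ty1 rows YML039W (−2.15), YMR045C (−1.89), YMR050C (−1.55) and YMR046C (−1.53). Copies of one family share nearly all their sequence, so the 6 are not independent rows. The other 4 were HAC1, which encodes the transcription factor of the unfolded protein response, PRM8, YCL042W and PDC5, a pyruvate decarboxylase gene. HAC1 had −0.09, −1.18, 4.52 and −0.77 on arrays 1 to 4, and YMR046C 0.69, −1.28, 4.28 and −0.30. In both, array 3 was the highest and array 2 lay below array 4. YCL042W (2.47) and PDC5 (2.27) were highest on array 3 too, so these gaps rest in part on that array. This comparison was chosen after the values were seen. Rows above 1 on arrays 1, 2 and 3 numbered 36, or 1.33% of those with 4 values, and 30 of these were above 1 on array 4 as well. YIL080W and YIL082W-A were the 2 of the 36 that lay under 0.5 there, and YIL082W-A was the 1 that lay under 0.

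**Figure D2:**
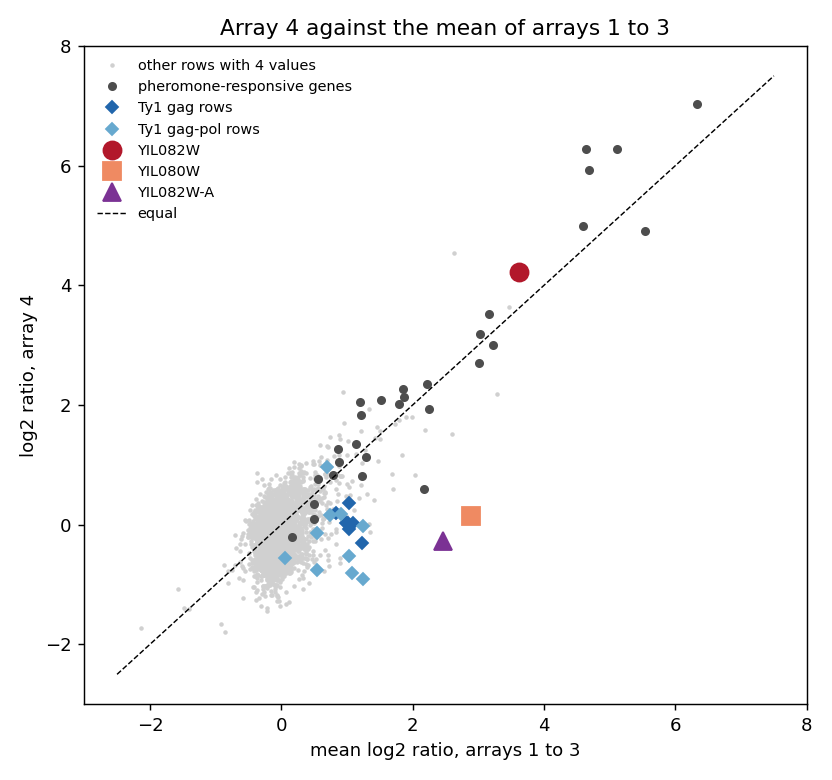
Log2 ratio on array 4 (vertical axis) against the mean log2 ratio of arrays 1 to 3 (horizontal axis) for the 2715 rows with 4 values, with the dashed line marking equal values. YIL082W (4.23 on array 4) lies near the line among the pheromone-responsive genes, while YIL080W (0.15) and YIL082W-A (−0.27) lie below it, farther than any other row, with several Ty1 rows on the same side.

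The Ty3 ratios were also averaged by the dye on the treated RNA and by each possible grouping of arrays into cultures. YIL082W averaged 3.30 on the arrays with treated RNA in Cy5 and 4.23 on those with treated RNA in Cy3. YIL080W averaged 1.45 and 2.96 in that order, and YIL082W-A 1.03 and 2.54. The mean was therefore lower with treated RNA in Cy5 in all 3 rows, with differences of −0.93, −1.51 and −1.52, and it was above 0 in both orientations. The lower Cy5-treated array was not the same in all rows. For YIL082W it was array 2 (2.38, against 4.23 on array 4). For YIL080W and YIL082W-A it was array 4 (0.15 and −0.27, against 2.75 and 2.32 on array 2). If arrays 1 and 2 shared a culture, and arrays 3 and 4 the other, the culture means of YIL080W were 3.33 and 1.08, and those of YIL082W-A 3.03 and 0.54. If arrays 1 and 4, and arrays 2 and 3, were the pairs, the same means were 2.02 and 2.39 for YIL080W and 1.74 and 1.83 for YIL082W-A. The culture means of YIL082W were 3.53 and 4.01 in the first grouping and 4.45 and 3.08 in the second. Which grouping holds cannot be told apart here, and the part of the dye in these gaps was not tested.

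The Ty3 rows were set beside 37 pheromone-responsive genes, a list chosen with earlier results of these data known. Of these, 35 had a value on at least 1 array and 29 had values on all 4 arrays and were tested. Among the 29, 22 rose and 0 fell at an adjusted p under 0.05 by limma, where 2.03% of all tested rows rose and 0.184% fell. The median log2 ratio of the 29 was 1.85, against −0.05 over all 2715 rows. The count of 22 was 14 without array 2, and 12 with an equal scale between arrays. Above 0 on all 4 arrays were 28 of the 29, 2 of the 3 Ty3 rows, and 9.83% of all rows. Above 1 on all 4 arrays were 15 of the 29, 1 of the 3 Ty3 rows (YIL082W), and 1.1% of all rows.

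The 5 pheromone-responsive genes with the largest means all exceeded the mean of YIL082W. PRM1, which acts in plasma membrane fusion, had 4.15, 10.55, 4.29 and 7.03 on arrays 1 to 4 (limma adjusted p = 0.00276). The membrane protein gene FIG1, active in mating, had 5.86, 4.25, 5.23 and 6.28 (adjusted p = 0.000698), and PGU1, a secreted polygalacturonase of filamentous growth, 4.96, 6.43, 5.22 and 4.90 (adjusted p = 0.000698). PRM3, a nuclear fusion gene, had 3.59, 6.58, 3.74 and 6.28, and AGA1, the cell wall anchor of a-agglutinin, 4.91, 3.88, 5.26 and 5.92 (adjusted p = 0.00041 and 0.00255 by limma). PRM1, PGU1 and PRM3 were highest on array 2, the array on which YIL082W was lowest. With an equal scale between arrays PRM1 (adjusted p = 0.106) and PGU1 (adjusted p = 0.0552) were not called. In all, 6 of the 29 had a mean above that of YIL082W, and these were the same 6 rows that lay above it among all 2715. The mean of YIL080W was exceeded by 11 of the 29 and that of YIL082W-A by 15.

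On each array the place of the Ty3 rows within this list differed. Of the list's values, 3 of 31 exceeded YIL082W on array 1, 12 of 30 on array 2, 5 of 35 on array 3 and 7 of 33 on array 4. YIL082W-A was above 25 of 31 values on array 1, 18 of 30 on array 2 and 12 of 35 on array 3, and below all 33 on array 4. The pheromone-responsive genes as a group had no shortfall on array 4: their median difference between array 4 and the mean of arrays 1 to 3 was 0.20. The lowest of the 29 was PRM8 at −1.57, with log2 ratios of 2.34, 2.51, 1.66 and 0.60 and no call (adjusted p = 0.0787 by limma).

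**Figure D3:**
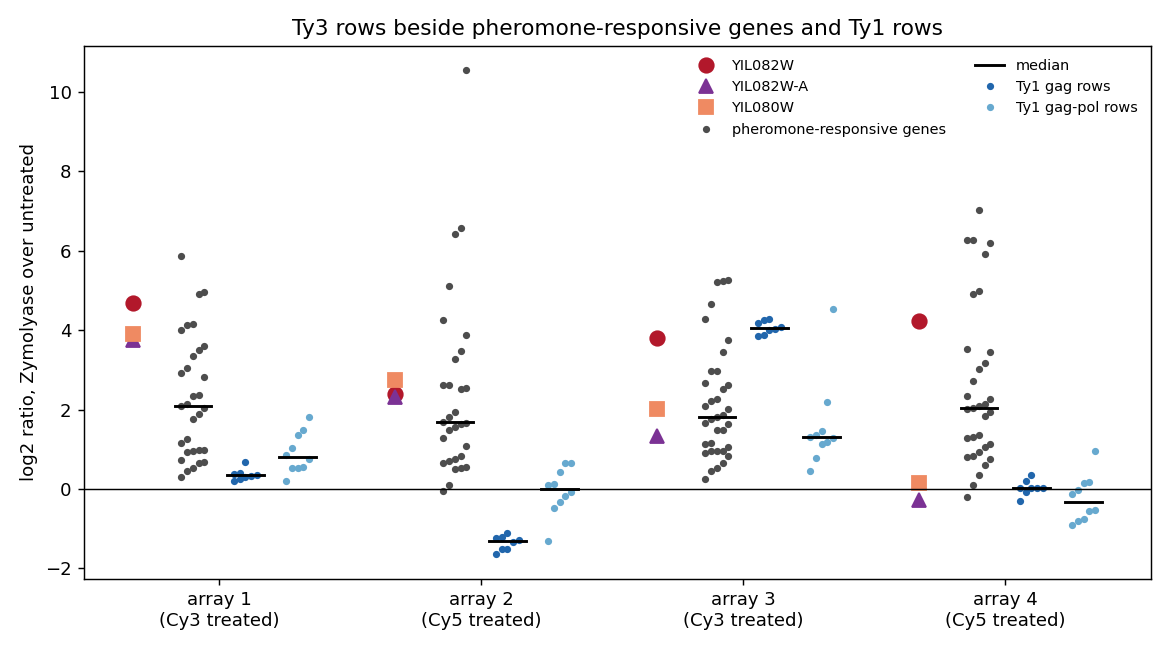
Log2 ratio of Zymolyase over untreated (vertical axis) on each of 4 arrays for the Ty3 rows, the pheromone-responsive genes, the Ty1 gag rows and the Ty1 gag-pol rows; each point is a row and each black bar a median. All 3 Ty3 rows lie above every Ty1 row shown on arrays 1 and 2. On array 3, 9 of the 18 Ty1 rows shown lie above YIL082W. Of the Ty3 rows YIL082W alone lies above all 18 on array 4.

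The genes nearest to YIL082W in size and array pattern were, by root mean square difference over 4 arrays, NFG1 (0.91), AGA2 (0.99), PRM2 (1.05), ASG7 (1.09) and PRM5 (1.11). NFG1, a negative regulator of filamentous growth, had 4.16, 3.56, 2.66 and 3.63 on arrays 1 to 4 and rose (adjusted p = 0.00255 by limma), but was not called without array 2 (adjusted p = 0.0597). AGA2, the adhesion subunit of a-agglutinin, had 3.04, 2.61, 3.44 and 3.18 (adjusted p = 0.00211 by limma). PRM2, a pheromone-regulated membrane protein, had 3.50, 2.55, 2.96 and 2.71 (adjusted p = 0.00101 by limma), and like YIL082W and AGA2 it was lowest on array 2. ASG7, which acts on pheromone signalling in a cells, had 3.34, 3.48, 2.66 and 3.52, and PRM5, which is induced by wall stress too, 4.14, 3.27, 2.26 and 3.01. With an equal scale between arrays NFG1, ASG7 and PRM5 were not called (adjusted p of 0.0795, 0.0552 and 0.117 by limma), and PRM5 was not called without array 2 (adjusted p = 0.0854). Of the 5, 4 are on the pheromone list, which holds 29 of the 2715 rows with 4 values. This measure favours rows as high as YIL082W, and the list was chosen with earlier results known. No conclusion is drawn from the overlap. By Pearson correlation over the 4 arrays, which ignores size, none of the 5 stayed: the closest was TOM70 (r = 0.997), with ratios between −0.37 and 0.03.

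After YIL082W-A, the rows nearest to YIL080W were SVS1 (0.79), PRM8 (0.84), YMR173W-A (0.90) and KAR4 (1.12), a list named after the values were seen. SVS1, a cell wall protein, had 3.27, 2.29, 2.23 and 1.51 on arrays 1 to 4 and rose (adjusted p = 0.0118 by limma), and was not called with an equal scale between arrays (adjusted p = 0.13). KAR4, a transcription factor of nuclear fusion genes, had 2.92, 1.80, 2.01 and 1.93 (adjusted p = 0.0045 by limma) and was not called with an equal scale (adjusted p = 0.0795). Both stayed well above 0 on array 4, where YIL080W did not.

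**Figure D4:**
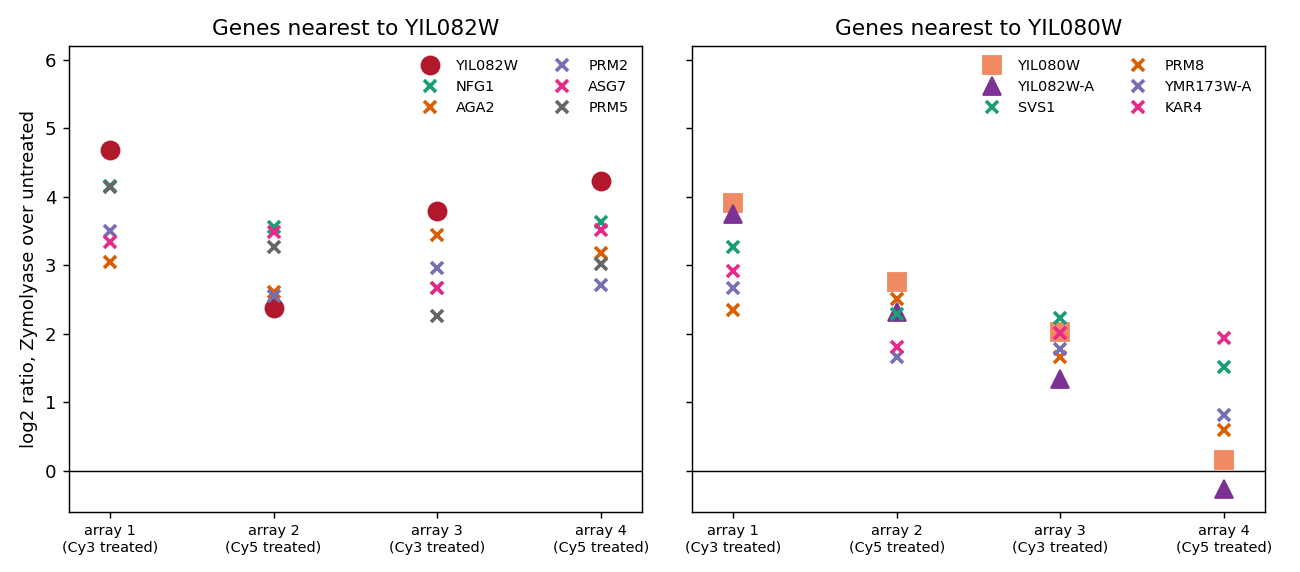
Log2 ratio of Zymolyase over untreated (vertical axis) on each of 4 arrays for YIL082W with its 5 nearest genes (left) and for YIL080W and YIL082W-A with the genes nearest to YIL080W (right). The neighbours of YIL082W stay between 2.26 and 4.16 on all arrays, while at the right all rows are lower on array 4 than on array 1.

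Ty1 rows had another pattern across the arrays. The R64 gene table holds 31 unnamed genes of 1323 bases, the length of the Ty1 gag frame, and 8 of these had a row; 10 rows were of longer gag-pol frames that start at the same base as one of the 31. Ty1 rows that this match does not find were left out. As copies of one family the Ty1 rows are not independent, and counts of them below are counts of rows only. The 8 gag rows had medians of 0.34, −1.31, 4.05 and 0.03 on arrays 1 to 4, and the 10 gag-pol rows 0.81, 0.01, 1.30 and −0.33. Array 3 alone was high in the gag rows, and array 2 was below 0 in all 8 of them. On array 4 the gag rows YAR010C (0.0308), YBL005W-A (0.031), YML040W (0.0308) and YMR051C (0.0304) had nearly the same value. The glycolytic genes TDH3 (0.0311), FBA1 (0.0313) and ENO2 (0.0317) had nearly that value on array 4 too. Why these rows share it was not tested, so it may not be a measured ratio. None of the 18 was called by limma, with 7 at an unadjusted p under 0.05, all of them gag-pol rows. Over all 2715 rows 2.21% were called and 14.7% had an unadjusted p under 0.05. The median of the 18 means was 0.74, and it rested on array 3, without which it was −0.20.

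The 2 highest means of Ty1 were those of YML045W (0.93) and YBR012W-A (0.86), and the 2 lowest those of YER160C (−0.10) and YER138C (0.22). On array 1 the Ty3 rows (3.74 to 4.68) lay above all 18 Ty1 rows (0.19 to 1.80), and on array 2 likewise (2.32 to 2.75 for Ty3 and −1.65 to 0.65 for Ty1). On array 3, 9 of the 18 Ty1 rows lay above YIL082W, and 6 lay below YIL082W-A. On array 4 YIL082W (4.23) lay above all 18 (−0.90 to 0.96), while YIL080W and YIL082W-A lay within their range. Array 3 is thus where the Ty1 gag rows came up to the Ty3 gag row, and array 4 where the Ty3 gag-pol row came down to the Ty1 rows.

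Gag and gag-pol rows parted in Ty1 too, although the frames of each pair start at the same base. For the Ty1 pair YMR046C (gag) and YMR045C (gag-pol), the log2 ratios were 0.69, −1.28, 4.28 and −0.30 for gag and 1.48, 0.64, 1.12 and −0.81 for gag-pol. Gag-pol was higher on arrays 1 and 2 and lower on arrays 3 and 4. In Ty3, the Gag-Pol row was lower than the Gag row on all 4 arrays, so on arrays 3 and 4 gag was the higher in both pairs. Other Ty1 pairs were divided on array 4. There gag-pol was the higher for YJR028W and YJR029W (0.20 for gag and 0.96 for gag-pol) and YJR026W and YJR027W (−0.08 and 0.16). It was the higher for YBL005W-A and YBL005W-B too (0.03 and 0.18). Gag was the higher for YBR012W-A and YBR012W-B (0.36 and −0.14), YML040W and YML039W (0.03 and −0.90), and YMR051C and YMR050C (0.03 and −0.52). The gag rows YBL005W-A, YML040W and YMR051C had the shared array 4 value described above. For these pairs the order on array 4 may therefore not be a measured one. The gag-pol row YML045W was an exception among Ty1 rows, with 0.52, −1.32, 4.54 and −0.02, close to the gag rows on every array. The pair YMR046C and YMR045C, the other pairs named and the row YML045W were chosen after their values were seen.

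Few rows of the other families were found by name or frame length, and rows that this match does not find were left out. The Ty2 gag row found, by a shared frame of 1317 bases, was YCL020W, with 1.23, −0.06, 2.50 and 1.57 on arrays 1 to 4. Its gag-pol row YCL019W had 1.19, 0.09, 0.65 and 0.10. Neither was called (adjusted p of 0.219 and 0.241 by limma). The table also names YFL-TYA and YFL-TYB, a TYA (gag) and a TYB (pol) frame with no family given. YFL-TYB had 2.29, 0.34, 1.78 and 1.06 and was called (1.37 ± 0.85, SD, n = 4 arrays; adjusted p = 0.00954 by limma), though not without array 1 (adjusted p = 0.16). YFL-TYA had 1.32, −0.33, 4.10 and 0.60, with array 3 high as in the Ty1 gag rows, and was not called (adjusted p = 0.266).

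Genes beside the Ty3 copies did not show ratios of that size. On chromosome IX the R64 table puts CAB2, of coenzyme A synthesis, and SDS3, of a histone deacetylase complex, before YIL082W-A, and a tRNA gene followed by AIR1, an RNA-binding protein of nuclear RNA surveillance, after it. CAB2 had −0.31, −0.19, −0.23 and −1.03 on arrays 1 to 4 and AIR1 −0.57, −0.35, 0.57 and −0.56, and neither was called (adjusted p of 0.301 and 0.557 by limma). SDS3 had 0.97 on array 3 alone. At the copy on chromosome VII a tRNA gene and CLB6, a B-type cyclin, stand before the element, and CLD1 and YGR111W after it. CLB6 had −0.32 and 0.47 on arrays 3 and 4, CLD1 had no value, and YGR111W had 0.16 ± 0.22 (SD, n = 4 arrays). Neither tRNA gene has a row.

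**Figure D5:**
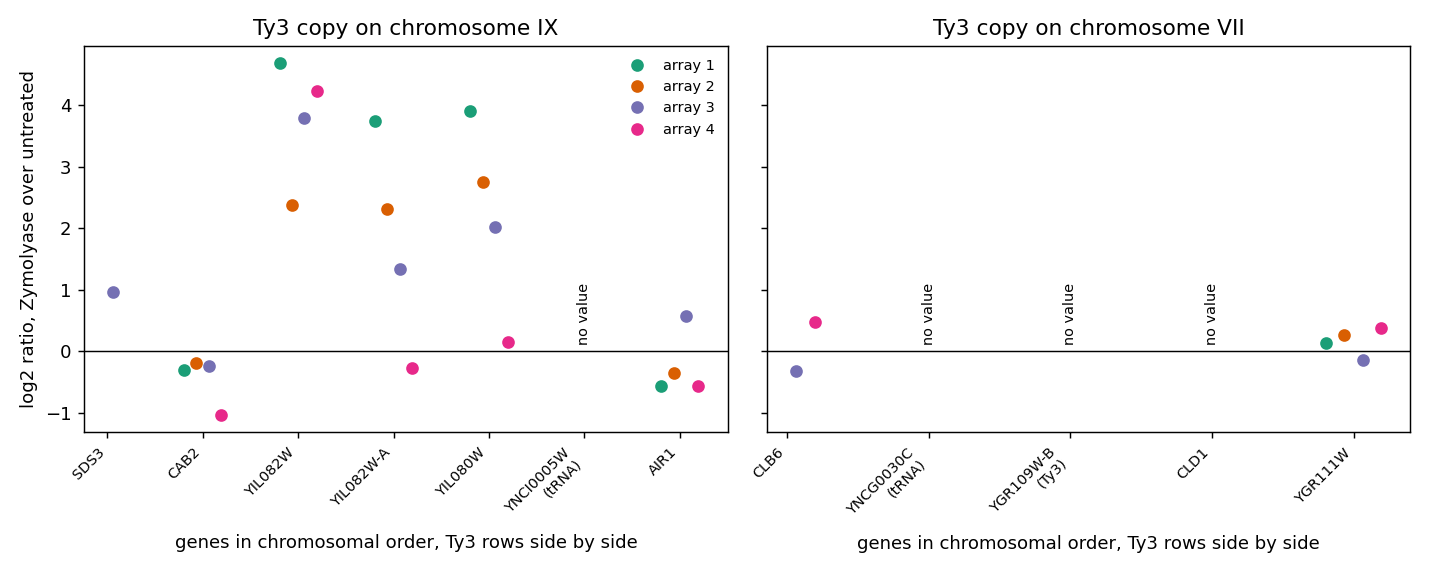
Log2 ratio of Zymolyase over untreated (vertical axis) on each of 4 arrays for the genes on either side of the Ty3 copies on chromosomes IX (left) and VII (right), in chromosomal order and not to scale, with the 3 Ty3 rows side by side. The neighbours lie between −1.03 and 0.97, while the Ty3 rows reach 4.68.

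The kinases and regulators around Ste12 moved in part. Of 12 genes, 7 were tested and 2 rose, the MAPKs FUS3 (1.95 ± 0.35, SD, n = 4 arrays; adjusted p = 0.00899 by limma) and KSS1 (2.25 ± 0.30; adjusted p = 0.00452), with 0 lower and a median of 0.59; over all tested rows 2.03% rose. FUS3 and KSS1 are also on the pheromone list and were counted there too. STE12 itself was not tested, with values of 0.70, 1.63 and 0.94 on arrays 2, 3 and 4. TEC1 had 0.92 ± 0.21 and did not pass (adjusted p = 0.0605 by limma). MCM1, which partners Ste12 at cell type genes, had −0.46 ± 0.40 and did not pass either (adjusted p = 0.253). All 12 lay below YIL082W on every array on which they had a value.

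Few host factors of Ty3 insertion and particle assembly could be tested. Of 9 initiation factors of RNA polymerase III, the machinery next to which Ty3 inserts, 3 were tested and 0 were called by limma, with 0 at an unadjusted p under 0.05 and a median of 0.01 (over all 2715 rows, 2.21% were called and 14.7% had an unadjusted p under 0.05). SPT15, the TATA-binding protein, had 0.05 ± 0.30 (SD, n = 4 arrays). Of 8 P body and mRNA decay proteins, a group known to affect Ty3 particle assembly, 4 were tested and 0 were called by limma, with 1 at an unadjusted p under 0.05 and a median of −0.13. DCP1, a subunit of the decapping enzyme, had −0.36 ± 0.48. With 3 and 4 genes tested, counts of 0 are near the share over all rows, and they do not speak for the whole lists.

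Markers of mating type were read because Ty3 is a transposon of haploid cells. All 7 markers of a cells were tested and 5 of them rose, where 2.03% of all tested rows did; MFA2 (0.40 ± 0.21, SD, n = 4 arrays) and STE6 (0.46 ± 0.29) did not pass. The count was 3 without array 2 and 2 with an equal scale between arrays, where ASG7 (adjusted p = 0.0552 by limma), STE2 (0.0552) and MFA1 (0.13) were not called. The count with an equal scale was added after the values were seen. All 7 markers of a cells are also on the pheromone list, so the 5 that rose were counted there too. Of 4 markers of alpha cells none had values on all arrays: SAG1 had 1.06, 1.48 and 1.96 on arrays 1, 3 and 4, MF(ALPHA)2 had 0.28, −0.68 and 0.65 on arrays 2, 3 and 4, and STE3 and MF(ALPHA)1 had none. Ratios do not give levels, so they do not show which of these genes the cells expressed most.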

How the data were processed

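Per the labels, cDNA of treated and untreated parts of 2 hog1 cultures was labelled with Cy3 or Cy5 and hybridised to 4 two-colour arrays. The deposited table holds 1 log2 ratio for each row and array. How images were read, how background and normalization were handled, which condition is the numerator and why some rows are blank are not given in the sources used. Of 6209 rows, 2 controls were left out. The signs of arrays 2 and 4 were turned; the base was read from the values, since all 9281 turned values under 0 were base-2 logarithms of a ratio with 4 decimals, where 56.5% would be by chance. Column medians as deposited lay between −0.0831 and 0.016 and were kept. Symbols and gene order came from R64, in which 5654 yeast rows found their locus tag; 553 kept the table's name. No coordinates are printed, because no build is named, and no sequence was read.

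The replicate was the culture (n = 2). Under both possible dye-swap pairings the culture means of the 2715 rows with 4 values were tested against 0 with limma 3.58.1 (lmFit, eBayes, R 4.3.3). The larger p was kept and adjusted by the Benjamini-Hochberg method. In all 60 rows were called at an adjusted p under 0.05 (55 higher), and 400 had an unadjusted p under 0.05. With 2 cultures the smallest p of an exact sign-turn test is 0.5, and with 4 arrays it is 0.125, so none was used. The number of arrays limits the precision. The Ty3 rows, the gene lists and the tests were chosen with earlier results of these data known. The genes named are the Ty3 rows, other Ty rows, the 5 largest means of the pheromone list, the 5 genes nearest to YIL082W, the 2 genes on either side of each Ty3 copy, and up to 3 members of each further list, with exceptions stated. Rows of Ty4 and Ty5 were not used here. Alternatives were centring, scale, dye orientation, limited values, pairing, variance model, rows tested and leaving out each array.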

Additional observations from a re-analysis of the deposited data

Results flagged for a closer look

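The rows checked for an outlying array were the Ty rows, the gene lists, the genes beside the Ty3 copies and those nearest to YIL082W. Of the 69 with a value on all 4 arrays, 1 had a single array well apart from the rest. About 3.5 such rows would arise by chance if rows were independent, which rows of one Ty family are not. The row set apart was CAB2, the gene before the Ty3 copy on chromosome IX, with −1.03 on array 4 against −0.31 to −0.19 on the other arrays. None of the 3 Ty3 rows was set apart by this measure, YIL080W and YIL082W-A included, since their values spread over the whole range between array 1 and array 4.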

How the results depend on the processing

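The mean log2 ratios of the 3 Ty3 rows were above 0 under all 11 alternatives each. Limiting values to a log2 ratio of 2 in size brought YIL082W to 2.00, the value this limit sets. Leaving out 1 array gave 3.47 to 4.23 for YIL082W, 1.64 to 2.89 for YIL080W and 1.13 to 2.47 for YIL082W-A. The median of the Ty1 rows was −0.49 on the Cy5-treated arrays alone and ranged from −0.20 (without array 3) to 1.24 when 1 array was left out. The count of called rows was 277 with arrays 1+4 and 3+2 as cultures, of which 202 were higher, and 22 with an equal scale between arrays (18 higher); with 1 array left out it ranged from 22 (array 2) to 129 (array 3), in fits where 1 culture mean was a single array. Pheromone-responsive genes called were 12 with an equal scale and 14 to 26 with 1 array left out. The genes nearest to YIL082W had 0 of 5 in common with those by Pearson correlation. The cause of these shifts was not tested. Each array already sets treated against untreated RNA in 1 ratio, so the tests of ratios against 0 were paired, and no further pairing was made. No spot intensity was used, so how near background a signal lay is unknown.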
